A study of Mus musculus with 12 samples.

Results

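The Nanog cluster of mouse chromosome 6 holds 5 protein-coding genes, in the order Apobec1, Gdf3, Dppa3, Nanog and Slc2a3, whose annotated spans run over 224.6 kb (122577792 to 122802363, mm10). Its ESRRB regions were chosen by position: a region belonged to the cluster if its nearest RefSeq protein-coding gene was one of these 5 and its centre lay inside that gene or within 100 kb of it. Of 86201 regions in the deposited count table, 38 met this rule. Binding of ESRRB in mouse embryonic stem cells was read by ChIP-seq, in which DNA fixed to a protein is recovered with an antibody and sequenced. The line labelled NanogKO:Esrrb:Nanog ("with Nanog") was set against the line labelled NanogKO:Esrrb ("without Nanog"), with 3 ESRRB ChIP libraries each, called A, B and C as in the table. Both lines share the Nanog knockout and the Esrrb element of the name, and both carry the cell line label N{delta}:cE:iN. All cells were untreated and grew in serum medium with leukaemia inhibitory factor. The labels do not give which part of Nanog is deleted, how Nanog was returned, at what level ESRRB is made or whether a line is 1 clone. Chromatin was fixed with formaldehyde, with or without a second crosslinker, and the labels do not tie a fixation to a sample. The ESRRB antibody does not read NANOG, so these counts do not check the Nanog labels.

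ESRRB is an orphan nuclear receptor that binds DNA as a single molecule and activates genes of the self-renewal network in embryonic stem cells. NANOG, a homeodomain factor, acts in the same network and is known to activate Esrrb, while ESRRB is known to occupy the Nanog promoter. The cluster is a known neighbourhood of pluripotency genes in which strong enhancers lie upstream and downstream of Nanog, and an enhancer there may act on a gene that is not the nearest. Assignment of a region to a gene below is by distance alone.

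The promoter of Nanog is shown because an ESRRB region covers it and because motifs of the network are known there. The 250 bases before the upstream annotated start of Nanog are given from RefSeq (GRCm38.p6, the assembly behind mm10, plus strand, chr6:122707239-122707488). Capitals mark the 2 motifs found.
Nanog: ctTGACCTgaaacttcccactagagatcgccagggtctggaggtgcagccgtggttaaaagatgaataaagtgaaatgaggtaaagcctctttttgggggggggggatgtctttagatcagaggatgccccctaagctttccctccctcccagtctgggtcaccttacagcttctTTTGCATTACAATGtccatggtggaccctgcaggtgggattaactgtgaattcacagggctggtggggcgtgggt
The first stretch is the nuclear receptor hexamer AGGTCA on the opposite strand, 248 to 243 bases before the start. It was found on either strand in 16.3% of 32851 RefSeq promoter windows. The second, TTTGCATTACAATG, is the known composite element of OCT and SOX factors, 75 to 62 bases before the start. Its exact letters were found on either strand in 2 of those windows (0.00609%). These letters were taken from the Nanog promoter itself, and Nanog had 2 entries in this set of windows. The count therefore had to include Nanog and does not measure how rare the element is. These 2 motifs were added after the sequence was seen, and the hexamer is contained in the longer receptor sites. The extended estrogen-related receptor site TCAAGGTCA, its core AAGGTCA and the octamer ATGCAAAT were not in this window, and 0.423%, 4.72% and 1.74% of the promoter windows held them. These matches describe letters and do not show where ESRRB sat. Of the 5 genes, Nanog and Apobec1 had an entry in the promoter table, and Dppa3, Gdf3 and Slc2a3 had none.

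Read counts in all regions summed to between 6689166 and 8382646 in the libraries with Nanog and to between 2734338 and 5193707 in those without Nanog. Signal below is CPM, the count of a region scaled to a common total of reads in regions, with library factors from the trimmed mean of M-values (TMM). Fold changes are log2 values of the line with Nanog over the line without Nanog, with their standard errors (SE), from the edgeR quasi-likelihood test fitted to 84892 regions, and a region was called at a Benjamini-Hochberg adjusted p under 0.05. Scaling uses the regions themselves, so that a uniform gain or loss of binding would be hidden. Nothing in the labels ties libraries to separate cultures, and the p-values therefore rest on a spread that may be technical. All 38 regions passed the filter on low counts, 1 of them, in Apobec1, through the libraries with Nanog alone.

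Summed ESRRB signal over the cluster did not separate the lines, while single regions in it were called in both directions. Summed over the 38 regions, signal was 788, 800 and 764 CPM with Nanog and 770, 832 and 774 CPM without Nanog. These sums overlapped between the lines. By edgeR, 4 regions were higher with Nanog, 2 were lower and 32 were not called. Among the 37 regions left without the one that passed the filter through the libraries with Nanog alone, 3 were higher and 2 lower. The cluster thus had 10.5% of its regions called higher and 5.26% lower, against 9.42% higher and 9.78% lower over all 84892 regions tested. The median log2 fold change was -0.03 in the cluster and -0.01 over all tested regions, and 17 of the 38 values were above 0. The libraries of the lines did not overlap at 7 regions that were higher and 4 that were lower with Nanog, where 17.0% and 16.8% of all tested regions were so placed.

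**Figure D1:**
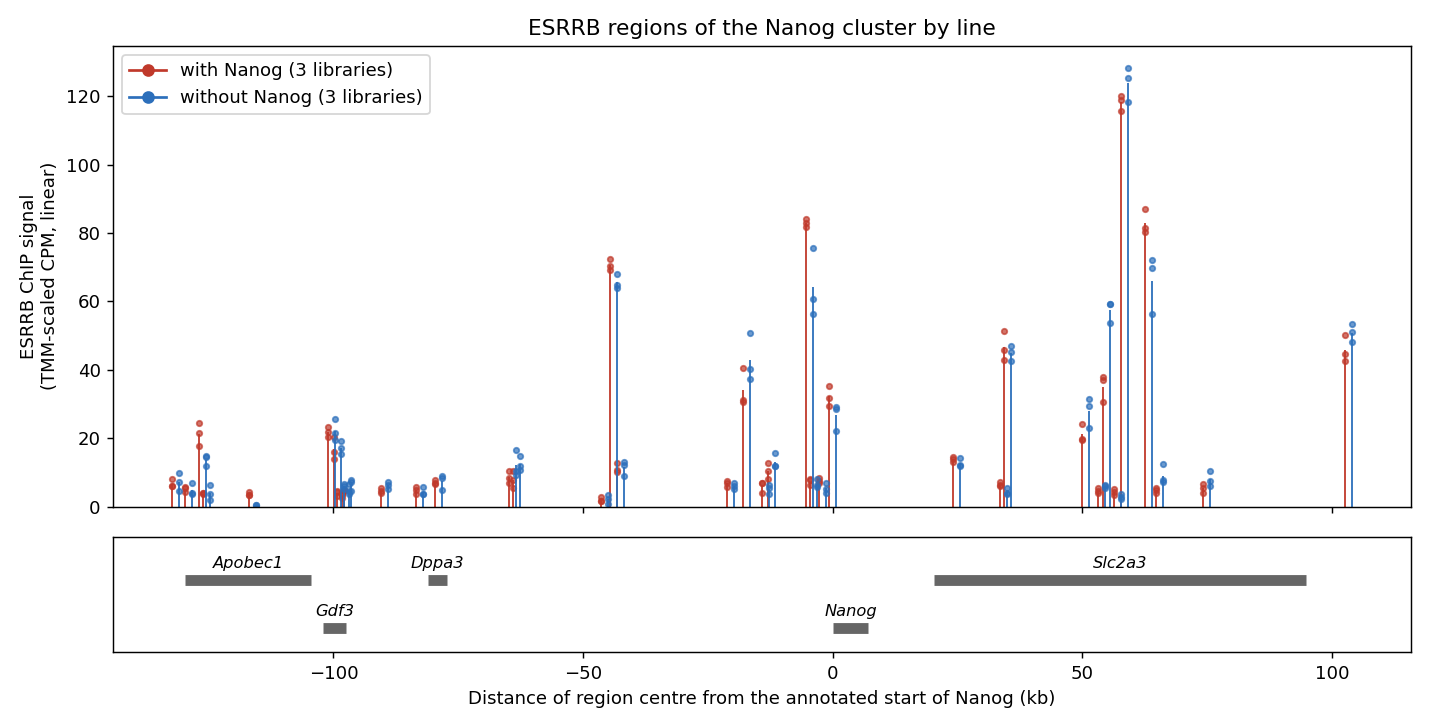
ESRRB signal (TMM-scaled CPM, linear axis) at each of the 38 regions against the distance of its centre from the annotated start of Nanog in kb. Lines reach the mean of each line of cells, dots are its 3 libraries, and grey bars below are the 5 gene spans; the tallest pair, 58.5 kb from the Nanog start inside the span of Slc2a3, stood at 118 CPM with and 124 CPM without Nanog.

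Signal was concentrated in a few of the 38 regions. The 7 strongest, each with a mean of at least 40 CPM over the 6 libraries, held 60.6% of the signal of the cluster. By contrast, 20 regions were below 10 CPM. The 7 strongest were 729 to 2587 bases wide, against a median of 379 bases in the cluster, and their share was not corrected for width. They lay 44.0 and 4.7 kb before the Nanog start and 35.0, 54.8, 58.5, 63.2 and 103.2 kb after it. Of these 7, 2 were called higher and 1 lower. Among all 3871 tested regions of at least 40 CPM, 11.8% were called higher and 28.5% lower. Precision followed signal, with a median SE of the log2 fold change of 0.12 in these 7 regions, 0.19 in the 11 regions of 10 to 40 CPM and 0.27 in the 20 weaker ones.

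Nanog itself had 8 regions, all before its start or across it, and none with its centre inside the gene. Both lines carry the Nanog knockout, and which part of the gene is deleted is not given. The absence of regions centred inside the gene was therefore not read as absence of binding. The strongest of the 8, at 122702238 to 122703301, lay 4.7 kb before the start in the known upstream enhancer stretch. It held 82.8, 84.1 and 81.8 CPM in libraries A, B and C with Nanog, against 60.7, 75.6 and 56.2 CPM without Nanog. Every library with Nanog was above every library without it, and library B without Nanog came closest. The region was called higher, with a log2 fold change of 0.37 ± 0.12 (SE; edgeR quasi-likelihood, Benjamini-Hochberg adjusted p = 0.0223). DESeq2 did not call it, nor did the edgeR fits that left out a single library, except the one without B of the line without Nanog. After thinning to equal totals it was called in 4 of 9 draws. The adjusted p ranged from 0.00031 to 0.13 over all alternatives. Per length it was the densest region of the cluster with Nanog, at 77.9 CPM per kb, and held 60.3 CPM per kb without Nanog.

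The promoter region of Nanog, at 122707046 to 122707732, covers the sequence printed above. Signal there was 35.4, 31.7 and 29.5 CPM with Nanog, against 28.7, 22.1 and 29.2 CPM without Nanog. The lowest library with Nanog was just above the highest without it. The log2 fold change of 0.27 ± 0.15 was not called (edgeR, Benjamini-Hochberg adjusted p = 0.225). Within a library, reads at the promoter were 0.39 ± 0.03 of those at the upstream enhancer region with Nanog and 0.43 ± 0.12 without Nanog (SD, n = 3 each), a difference smaller than the spread between libraries.

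Of the other 6 regions of Nanog, the strongest lay 17.2 kb before the start and held 30.6, 40.4 and 31.2 CPM with Nanog, against 37.2, 50.7 and 40.3 CPM without Nanog. These values overlapped, and the region was not called (log2 fold change -0.33 ± 0.14, edgeR with Benjamini-Hochberg adjusted p = 0.112). The uncalled regions of Nanog, the promoter included, ranged from -0.33 to 0.46 in log2 fold change. Values were above 0 in 6 of the 8 regions of Nanog, with a median of 0.23.

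Slc2a3, which encodes the glucose transporter GLUT3, had 12 regions, the most of the 5 genes. Its annotated span of 74555 bases includes predicted transcript models and takes in the known enhancer stretch downstream of Nanog. The strongest region of the whole cluster, at 122764709 to 122767295, lay there. It held 116, 119 and 120 CPM with Nanog, against 118, 125 and 128 CPM without Nanog. The libraries overlapped and no difference was called, with a log2 fold change of -0.07 ± 0.10 (edgeR, Benjamini-Hochberg adjusted p = 0.661). It was stronger than 99.8% of all tested regions in total signal. It was also 2587 bases wide, against a median of 346 bases over all regions. Per length it held 45.7 CPM per kb with Nanog and 47.9 CPM per kb without Nanog, denser than 95.1% of all regions.

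On either side of this strongest region the signal differed between the lines in opposite directions. At 122761712 to 122762851, 54.8 kb after the Nanog start, signal was 30.6, 37.8 and 36.9 CPM with Nanog, against 59.2, 53.8 and 59.1 CPM without Nanog. The groups were well apart, and the region was called lower, with a log2 fold change of -0.71 ± 0.13 (edgeR, Benjamini-Hochberg adjusted p = 0.000195). This call held in all 16 alternatives. At 122770064 to 122771273, 63.2 kb after the start, signal was 80.2, 81.4 and 87.0 CPM with Nanog, against 56.2, 69.7 and 72.1 CPM without Nanog. The groups did not overlap there either, and the region was called higher by a smaller margin (log2 fold change 0.32 ± 0.11, edgeR with Benjamini-Hochberg adjusted p = 0.0465). That call was lost with DESeq2 and without library A of the line without Nanog or any 1 library of the line with Nanog, with adjusted p from 0.0024 to 0.19. After thinning to equal totals it was called in 5 of 9 draws.

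A ratio of 2 regions within a library needs no scaling between libraries. Reads at the region 63.2 kb after the Nanog start were 2.62, 2.15 and 2.36 times those at the region 54.8 kb after it with Nanog, against 0.950, 1.30 and 1.22 times without Nanog. The pair of regions, chosen after the values were seen, was thus near even without Nanog and uneven in every library with it. One was called lower and the other higher, so their ratio had to differ between the lines and is no support for the calls. The regions set against the strongest region below were called too, and those ratios are likewise a description. Relative to the strongest region between them, reads at the flank nearer to Nanog were 0.30 ± 0.03 with Nanog and 0.46 ± 0.04 without Nanog. Those at the flank farther from Nanog were 0.70 ± 0.02 with Nanog and 0.53 ± 0.05 without Nanog (SD, n = 3 each). The upstream enhancer region of Nanog gave 0.70 ± 0.02 of the reads of the strongest region with Nanog and 0.52 ± 0.08 without Nanog.

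**Figure D2:**
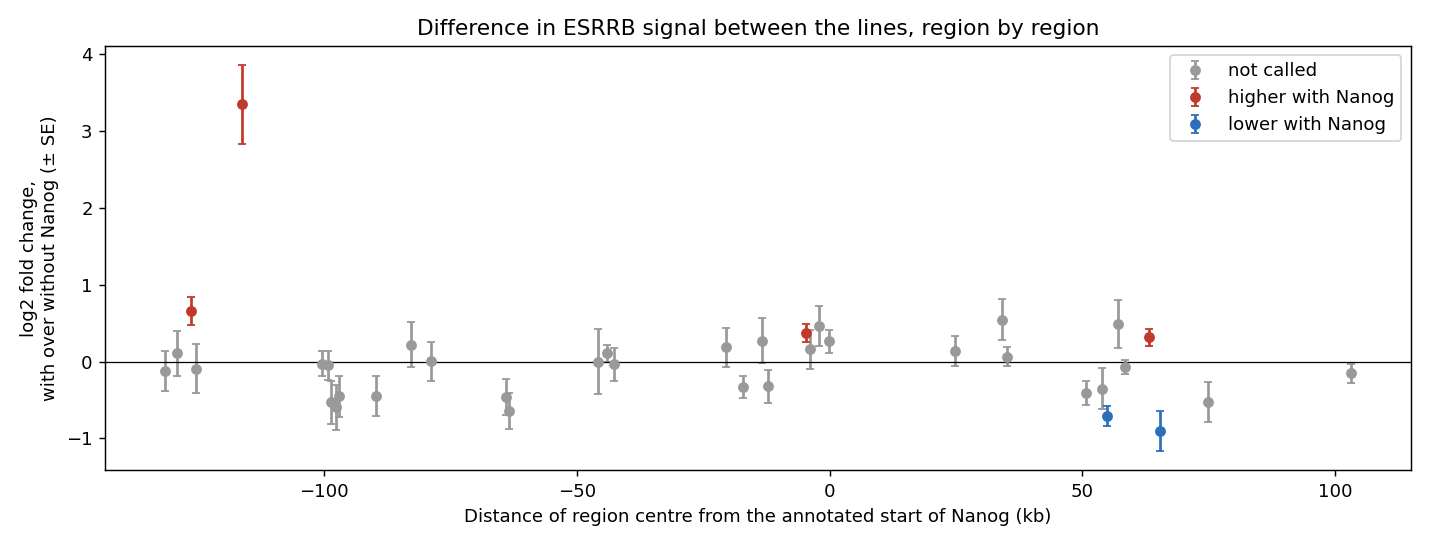
Log2 fold change of ESRRB signal, with over without Nanog, with its SE, at each of the 38 regions against the distance of the region centre from the annotated start of Nanog in kb. Red regions were called higher and blue regions lower with Nanog; the called regions after the Nanog start, at 54.8, 63.2 and 65.4 kb, lie close together and point both ways.

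A weak region of Slc2a3 at 122772749 to 122772981, 65.4 kb after the Nanog start, was also called lower. It held 5.39, 4.95 and 4.07 CPM with Nanog, against 7.82, 12.3 and 7.05 CPM without Nanog. The groups did not overlap, and library B without Nanog was the highest. The log2 fold change was -0.90 ± 0.26 (edgeR, Benjamini-Hochberg adjusted p = 0.0133). With library B without Nanog left out it was -0.60, and the call was lost there and with library C of the line with Nanog left out. After thinning it was called in 7 of 9 draws. Read counts behind these values were 32 to 42 with and 21 to 44 without Nanog per library.

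The remaining 9 regions of Slc2a3 were not called, with log2 fold changes from -0.52 to 0.54. Those of at least 40 CPM were close in both lines. At 122741889 to 122743008, 35.0 kb after the Nanog start, signal was 51.4, 45.9 and 42.9 CPM with Nanog, against 46.9, 45.1 and 42.5 CPM without Nanog. At 122810352 to 122811080, 8.4 kb outside Slc2a3, it was 50.1, 44.6 and 42.6 CPM with Nanog, against 51.0, 53.5 and 48.2 CPM without Nanog. Both sets of libraries overlapped. Per length, the second was the densest region of the cluster without Nanog, at 62.8 CPM per kb with Nanog and 69.8 CPM per kb without Nanog.

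Dppa3 encodes the maternal factor also named Stella, which protects DNA methylation in the early embryo and marks germ cells. None (0) of its 7 regions was called by the main edgeR fit, against 19.2% of all tested regions in either direction. An unadjusted p under 0.05 was found at 1 region, and at 31.6% of all tested regions. Among the edgeR alternatives, 1 region was called lower with a filter on a mean count of at least 50. The same number was called lower with a replicate block by column letter and without library B of the line with Nanog. By DESeq2 0 were called and by limma-voom 1, against 11.8% and 19.0% of all tested regions in either direction. The strongest lay 33.2 kb from Dppa3 and 44.0 kb before the Nanog start, at 122662647 to 122664256, in the known enhancer stretch between the genes. It held 72.5, 70.3 and 69.2 CPM with Nanog, against 64.0, 68.1 and 64.8 CPM without Nanog. The libraries did not overlap, but the difference was small and was not called (log2 fold change 0.11 ± 0.11, edgeR with Benjamini-Hochberg adjusted p = 0.549). Its reads were 0.85 ± 0.02 of those at the upstream enhancer region of Nanog with Nanog and 1.04 ± 0.13 without Nanog (SD, n = 3 each).

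A pair of regions 13.1 and 13.8 kb from Dppa3 was lower in mean with Nanog. The second held 5.39, 10.5 and 7.76 CPM with Nanog, against 11.9, 14.8 and 10.8 CPM without Nanog. Its libraries did not overlap between the lines, and library A with Nanog was the lowest. The log2 fold change of -0.64 ± 0.24 was just short of the threshold (edgeR, Benjamini-Hochberg adjusted p = 0.0551). Inside Dppa3, 1 region held 7.71, 6.71 and 7.00 CPM with Nanog and 8.94, 8.40 and 4.90 CPM without Nanog, which overlapped.

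Gdf3 encodes a ligand of the transforming growth factor beta family. None (0) of its 6 regions was called by edgeR, by DESeq2 or by limma-voom, and 0 had an unadjusted p under 0.05 by edgeR, beside the same shares of all regions as given for Dppa3. Its strongest region, inside the gene at 122606682 to 122607501, held 23.1, 21.8 and 20.5 CPM with Nanog, against 19.4, 25.5 and 21.5 CPM without Nanog. These values overlapped. Log2 fold changes ranged from -0.60 to -0.03, below 0 in all 6 regions, though the strongest region turned to 0.013 when libraries were scaled by column totals. The regions at the upper end of the annotated span, at 122609805 to 122609986 and 122610249 to 122610549, had log2 fold changes of -0.60 ± 0.30 and -0.45 ± 0.27.

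Apobec1 encodes a cytidine deaminase known for editing the apolipoprotein B messenger RNA. It had 5 regions, none (0) of them within 1 kb of its annotated start. Of these, 2 were called higher, against 9.42% of all tested regions. Of the 2, 1 passed the count filter through the libraries with Nanog alone. The strongest, inside the gene at 122580854 to 122581600, held 17.8, 24.5 and 21.5 CPM with Nanog, against 14.5, 14.8 and 11.8 CPM without Nanog. The groups did not overlap. The log2 fold change was 0.66 ± 0.19 (edgeR, Benjamini-Hochberg adjusted p = 0.0121), and the call was made in 1 of 9 draws thinned to equal totals and was lost without library C of the line without Nanog and without library B of the line with Nanog.

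The other called region of Apobec1, at 122591230 to 122591442, had the largest fold change of the cluster and the lowest mean signal. It gave 24, 37 and 27 reads in the libraries with Nanog, against 1, 0 and 3 reads in those without Nanog. In CPM this was 3.49, 4.36 and 3.44 with Nanog and 0.372, 0 and 0.587 without Nanog. The ratio of summed reads, after scaling, was 10.8, with an exact interval at 95% confidence of 4.06 to 40.4 that covers counting error alone. With library C of the line without Nanog left out the ratio was 23.7 (4.15 to 947), on 1 read without Nanog, and with library B of that line left out it was 7.38 (2.78 to 27.7). The region was called higher (edgeR, Benjamini-Hochberg adjusted p = 2.3e-05), but it was in the peak list with Nanog alone and passed the count filter through the libraries with Nanog alone. A region that enters in this way has to be higher with Nanog, so its call is a description and its stability over alternatives is no support. At 3.76 ± 0.52 CPM with Nanog (SD, n = 3), it was still below the median of all regions, 6.47 CPM.

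**Figure D3:**
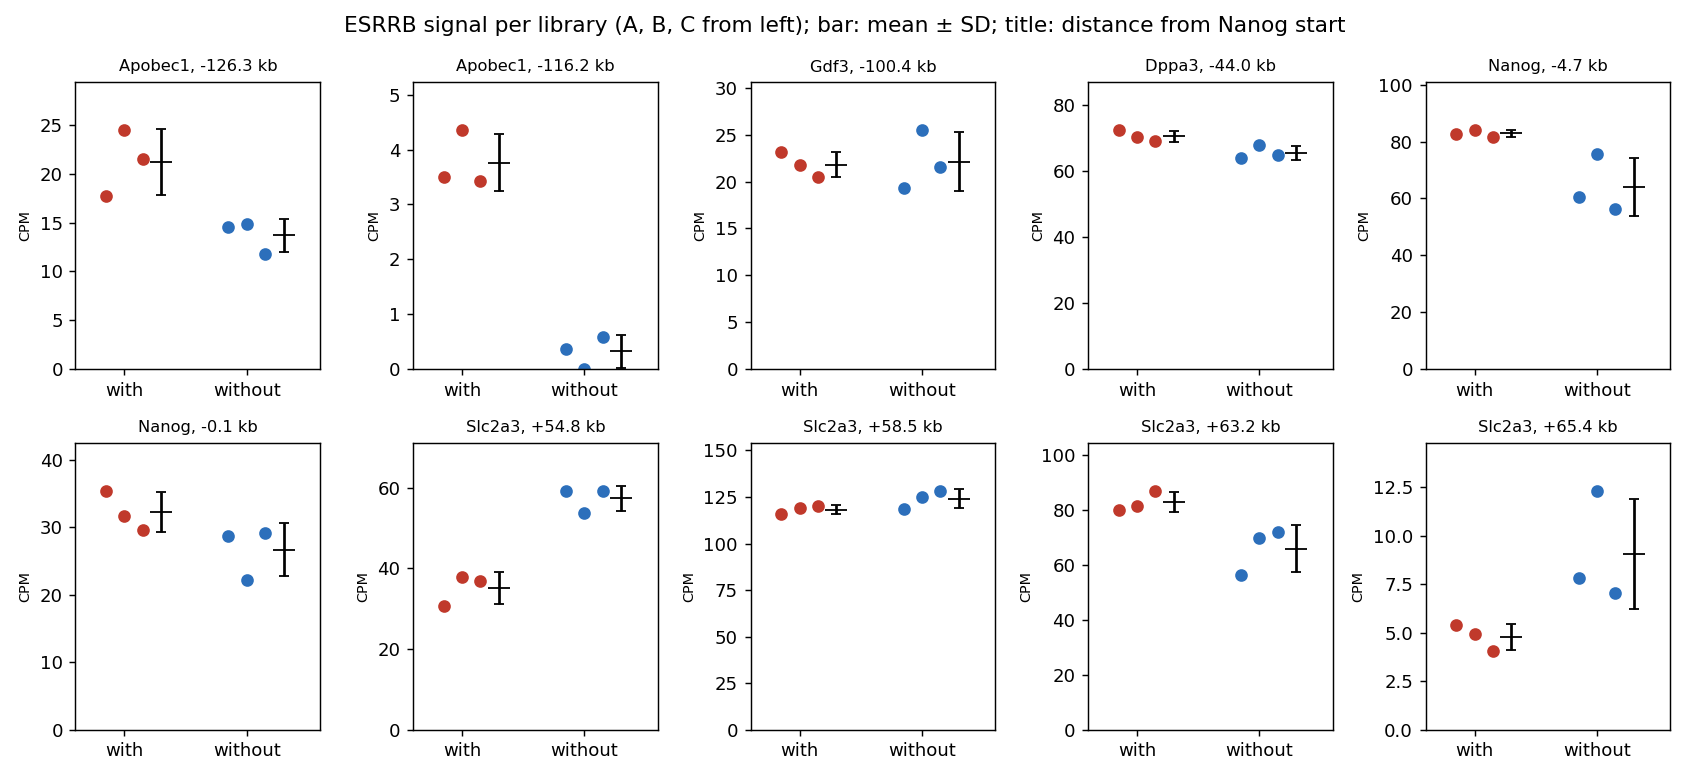
ESRRB signal (CPM, linear axes from 0) in each library at the strongest region of each gene, at every called region and at the Nanog promoter, named by gene and distance from the Nanog start. Dots are libraries A, B and C from left to right, and black marks give mean ± SD; the lines are apart by more than their spread at 54.8 kb after the start, and overlap at the strongest region, 58.5 kb after it.

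How reads were divided among the 5 genes was also compared within each library. Regions of Slc2a3 took 49.6 ± 1.0% of the reads of the cluster with Nanog and 52.3 ± 2.3% without Nanog. Those of Nanog took 23.8 ± 0.85% with Nanog and 21.4 ± 1.2% without Nanog (SD, n = 3 each). Dppa3 took 14.3 ± 0.16% with Nanog and 14.6 ± 0.64% without Nanog, and Gdf3 took 7.03 ± 0.79% with Nanog and 7.94 ± 0.03% without Nanog. Apobec1 took 5.18 ± 0.55% with Nanog and 3.77 ± 0.71% without Nanog. The libraries of the lines did not overlap for Nanog and Apobec1, which were higher with Nanog, or for Gdf3, which was lower. They overlapped for Slc2a3 and Dppa3. The Apobec1 share includes the region that passed the filter through the libraries with Nanog alone (24, 37 and 27 reads with Nanog, 1, 0 and 3 without). The separation at Apobec1 is therefore a description and no support, and shares without that region were not computed. The order of the genes was the same in all 6 libraries. These shares were not tested, because the genes were chosen with earlier results known.

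**Figure D4:**
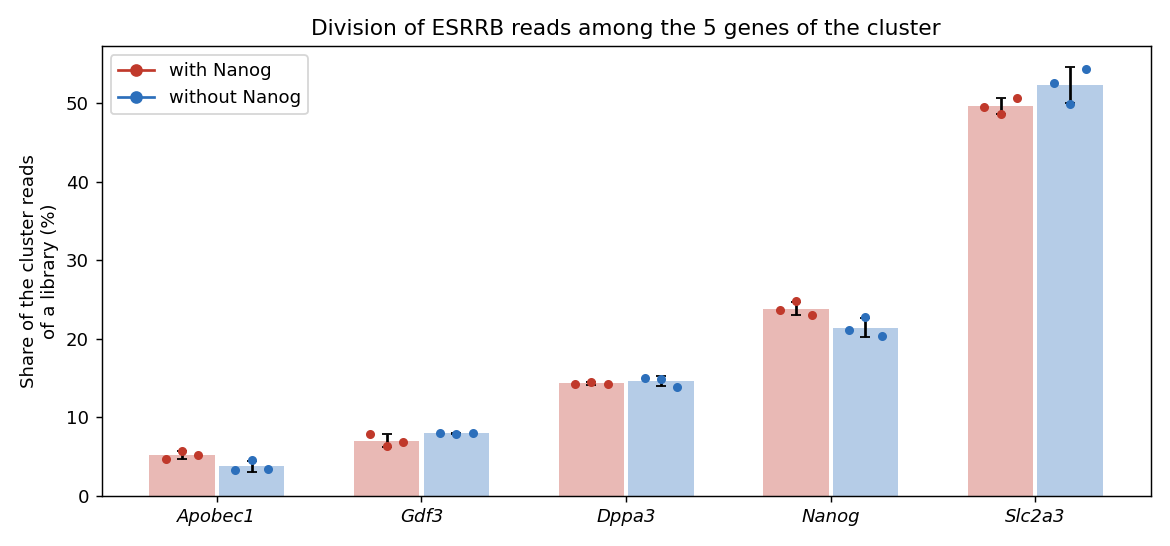
Share of the reads of the cluster (%, axis from 0) that fell in the regions of each gene, with bars for the mean, error bars for the SD and dots for the 3 libraries of each line. Nanog took 23.1% to 24.8% in the libraries with Nanog and 20.4% to 22.7% in those without Nanog.

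The deposited peak lists, 1 per line and so with no replicate error, held all 38 regions with Nanog and 17 of them without Nanog. The 17 made up 44.7% of the cluster, and 37.8% of all 86201 regions were likewise in both lists, by an overlap of at least 1 base. By reciprocal 50% overlap 10 of the 38 were in both lists (26.3%), against 28.0% of all regions. By 1 base they comprised 9 of the 12 regions of Slc2a3, 3 of 8 of Nanog, 3 of 7 of Dppa3, 1 of 6 of Gdf3 and 1 of 5 of Apobec1. By 50% Slc2a3 had 4, without its strongest region, Nanog and Dppa3 had 3 each, and Gdf3 and Apobec1 had 0. The 21 regions listed with Nanog alone were weak in both lines, with a median of 5.17 CPM with Nanog and 5.89 CPM without Nanog. The libraries with Nanog held more reads, and the part of depth in the longer list was not tested.

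Genes around the cluster were looked at by a list made from position. The 18 other protein-coding genes within 500 kb of its outer ends had 30 tested regions, with a median log2 fold change of -0.19. Of these regions, 1 was called higher and 4 lower (3.33% and 13.3%), against 9.42% and 9.78% of all tested regions. Phc1, which encodes a polycomb subunit, held 1 higher and 2 lower calls in 10 regions. Its strongest region, at 122340166 to 122342892, held 210 ± 6.6 CPM with Nanog and 260 ± 19 CPM without Nanog (SD, n = 3 each).

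Pluripotency genes outside the cluster, 22 in the list, had 324 tested regions within 100 kb. The list holds naive genes and also general factors such as Pou5f1, Sox2 and Sall4. Of the regions, 55 were called higher (17.0%) and 22 lower (6.79%), against 9.42% and 9.78% of all tested regions. The median log2 fold change of the 324 was 0.19. Esrrb held 9 higher and 0 lower calls in 33 regions, Zfp42 8 and 1 in 18, and Klf4 7 and 0 in 21. Prdm14 held 5 and 0 in 24, and Sall4 1 and 5 in 17. Among the others, Klf5 held 2 and 3 in 19, Tcl1 2 and 3 in 8, and Nr5a2 3 and 2 in 16. Pou5f1 held 4 and 0 in 9, and Sox2 0 and 3 in 31. The cluster, with 10.5% higher and 5.26% lower, was not tested against this list.

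**Figure D5:**
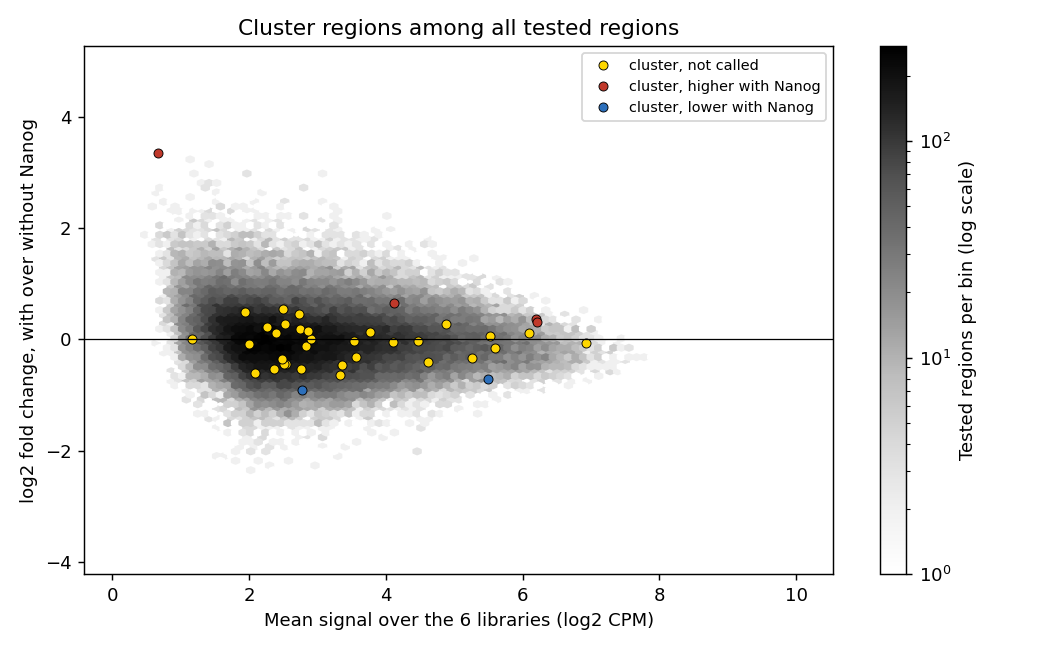
Log2 fold change, with over without Nanog, against mean log2 CPM over the 6 libraries, with all 84892 tested regions in grey bins (log colour scale) and the 38 regions of the cluster as dots. The called regions of Nanog and Slc2a3 with the strongest signal have log2 fold changes of 0.37 and 0.32, and the weakest called region, in Apobec1, has 3.35.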

How the data were processed

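ESRRB ChIP-seq libraries were assigned to lines from the sample titles. Counts per region are whole numbers, deposited without normalisation, for 6 ChIP libraries. Columns are lettered while titles are numbered, which ties a column to a line and not to 1 sample. The deposited peak lists hold positions alone. Per the submitters' processing notes, the tools were MACS2, Bowtie2, deepTools, SAMtools 1.4.1, bcl2fastq 2.19.1 and bedtools 2.26.0, with build mm10. Order, settings, read counter and duplicate removal were not named, or not given in the sources used here. All 6 input libraries were not used here. Chi-square per degree of freedom between libraries of a line was 1.34 to 2.54, so none was a duplicate.

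filterByExpr kept 84892 regions and removed 1309. edgeR 4.0.16 in R 4.3.3 was run with TMM scaling, line alone, and Benjamini-Hochberg adjustment over all regions; log-CPM has a prior count of 2. SE is the log2 fold change over the square root of F. Coordinates are 1-based. DESeq2 1.42.0 and limma 3.58.1 were alternatives, as were other scalings and filters, thinning and leaving out libraries. The tests were tested on simulated data. Figures used matplotlib 3.10.9.

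Regions were named if strongest for a gene, called, or within 1 kb of a gene start (either end of the span where no strand was given). Others given in full, such as the second region of Dppa3 and those of Slc2a3 of at least 40 CPM, were chosen after their values were seen. Members and lists were chosen with earlier results of these data known. The result of 1 gene near the cluster is not reported here.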

Additional observations from a re-analysis of the deposited data

How the results depend on the processing

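All alternatives were planned, except that the thinning routine was replaced by binomial draws, and these were repeated 9 times, after single draws were seen to vary. The 4 higher and 2 lower calls were the same regions with the other 3 scalings, without the count filter and with the loess offset. DESeq2 kept 2 higher calls, both in Apobec1, 1 of them the region that passed the filter through the libraries with Nanog alone. Thinning gave 1 higher call by the median over the draws, and 0 to 2 higher and 1 to 3 lower in single draws. With single libraries left out, higher calls numbered 1 to 4 and lower calls 1 to 3, the fewest higher without library B with Nanog. The region 54.8 kb after the Nanog start kept its call in all 16 alternatives. All 38 regions lay within 50 kb of their gene, so that distance changed nothing. With a replicate block by column letter 5 regions were called lower, 3 of Slc2a3, 1 of Dppa3 and 1 of Nanog. Over all tested regions, 10095 were then called higher and 10825 lower, against 7997 and 8306 in the main fit. Deviations from the line mean correlated by 0.08, 0.22 and 0.13 between libraries of like letter, and by -0.16 to 0.045 between those of unlike letter. Every like-letter value was thus above every unlike-letter value. No label says what a letter marks, so letters were not taken as pairs in the main fit. Whether a letter marks a shared batch was not tested. Values not called crossed 0 at the strongest region of Gdf3, with log2 fold changes of 0.013 by column totals, 0.0045 by upper quartile and -0.090 to 0.088 with 1 library left out, and at the strongest region of Slc2a3, with 0.11 under the loess offset. By reciprocal 50% overlap 10 regions were in the list without Nanog. What caused these shifts was not tested. Regions under 10 CPM, with a median SE of 0.27, limit what could be seen.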

Other observations

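Across the 6 libraries, the log2 of signal summed over the regions of a gene followed that of Nanog most closely at Rnf223, Gm6958 and Chordc1, with Pearson r of 0.99 at each, among 15897 genes. This is a description over 6 points that share library and depth, and 259 genes had r above 0.9. Within the cluster r with Nanog was 0.92 for Apobec1, 0.55 for Dppa3, -0.31 for Gdf3 and -0.56 for Slc2a3. The Apobec1 sum includes the region that passed the count filter through the libraries with Nanog alone. Its r is therefore a description and no support, and r without that region was not computed.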
